A study of Homo sapiens with 18 samples.

Results

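Mitosis and the passage from G2 into M were followed through 36 genes in 2 human melanoma cell lines after CRISPR targeting of ARID2, which encodes a subunit of the PBAF chromatin remodeller, a member of the SWI/SNF family. The 36 genes were taken by symbol from the 56629 symbols of the deposited count tables, from a list of well-known mitotic genes. They were chosen with earlier results of these data known. Polyadenylated RNA was sequenced from 18 libraries, 2 for each of 9 lines. All 36 genes were found in both tables, and all 36 passed the filter on low counts in both cell lines, their lowest count in any library being 385 in SKmel147 and 231 in 501mel.

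SKmel147 came from a metastatic melanoma with an NRAS mutation and was sequenced as 5 lines. Par carried no construct, while NT carried stable lentiviral Cas9 and a guide in a PLKO vector. The lines labelled as ARID2 KO, which are KO1.4, KO1.5 and also KO3.20, carried these same constructs. 501mel came from a metastatic melanoma with a BRAF mutation and was sequenced as 4 lines. There Par again carried no construct, and NTC carried Lenti-CRISPR V2, in which Cas9 and guide share 1 vector, as did KO1.8 and KO5.2, both labelled as ARID2 KO. NT and NTC are not spelled out in the labels and are called transduced controls here. Nothing in the labels says whether a KO line was a clone or a pool, or whether the 2 libraries of a line were separate cultures. The p-values thus reflect how far these libraries scatter, possibly for technical reasons only, and not the spread between independently made lines.

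Genes of mitosis are transcribed in a wave that starts in S phase and peaks in G2 and M. In quiescent and G1 cells the DREAM complex holds them down, partly through a promoter element called the CHR, and in G2 B-MYB and FOXM1 activate them, often together with NF-Y bound at CCAAT boxes. Cyclin B with CDK1, switched on by CDC25 phosphatases, drives entry into mitosis, and the kinetochore and its spindle checkpoint hold back the anaphase-promoting complex until chromosomes are attached. In a dividing melanoma culture the summed level of such RNAs is used as a measure of proliferation. In bulk RNA, fewer cells in G2 and M and less of these RNAs per cell cannot be told apart.

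Total counts ran from 21266522 to 35670140 in the 10 SKmel147 libraries and from 16749707 to 20606855 in the 8 501mel libraries. Within each line the 2 libraries differed beyond counting noise (chi-square over its degrees of freedom, 15.0 to 39.2 for SKmel147 lines and 2.51 to 4.86 for 501mel lines). ARID2 itself was at 62.3 to 72.8 CPM (counts scaled to library size with TMM factors) in SKmel147 controls, while KO libraries held 39.8 to 57.0 CPM. Controls of 501mel held 40.9 to 43.2 CPM, KO1.8 held 30.9 and 31.9 CPM, and KO5.2 held 19.8 and 21.0 CPM. ARID2 RNA was lower by 0.43 ± 0.08 and by 0.73 ± 0.05 on the log2 scale (± SE) by edgeR's quasi-likelihood test with Benjamini-Hochberg adjustment (adjusted p = 0.00390 and 3.74e-08). KO1.4 alone did not pass that test (log2 fold change -0.25, adjusted p = 0.228 by edgeR). Of the melanocyte markers, 501mel held PMEL at 2478 to 3072 CPM and MITF at 773 to 1047 CPM. SKmel147 held SOX10 at 146 to 250 CPM and MITF at 11.2 to 17.7 CPM, with PMEL at most 1.35, MLANA at most 1.46, TYR at most 0.589 and DCT at most 0.189 CPM, so most pigment markers were near 0 there.

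Promoters of the 36 genes were searched for the CHR, counted as TTTGAA or TTCGAA, for the CCAAT box and for an E2F-type site, GCGGGAA, on both strands from 200 bases before to 30 bases after the start in the RefSeq promoter table (GRCh38.p14). That table held 30 of the 36 genes, and AURKA, TPX2, TTK, BIRC5, UBE2C and FOXM1 had no entry. A CHR was present in 20 of the 30 (66.7%), against 12.6% of all 27305 promoters. A CCAAT box was present in 22 (73.3%), against 30.8%, and both together in 16 (53.3%), against 4.34%. The E2F-type letters were present in 2 (6.67%), against 5.27%. The 9 promoters below are those of CENPF, CDC20 and NUF2, which were lower in every SKmel147 KO line, and of the 6 members with the smallest p-values in 501mel, so that both patterns can be read against the letters each promoter holds. Capitals mark each CHR, CCAAT and E2F-type match on either strand.
CENPF (chr1:214602995-214603224, plus strand): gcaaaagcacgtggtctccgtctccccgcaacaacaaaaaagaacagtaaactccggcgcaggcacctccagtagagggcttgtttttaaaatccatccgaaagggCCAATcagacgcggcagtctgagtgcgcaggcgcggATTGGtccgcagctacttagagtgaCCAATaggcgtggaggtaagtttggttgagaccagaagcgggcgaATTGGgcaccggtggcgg
CDC20 (chr1:43358781-43359010, plus strand): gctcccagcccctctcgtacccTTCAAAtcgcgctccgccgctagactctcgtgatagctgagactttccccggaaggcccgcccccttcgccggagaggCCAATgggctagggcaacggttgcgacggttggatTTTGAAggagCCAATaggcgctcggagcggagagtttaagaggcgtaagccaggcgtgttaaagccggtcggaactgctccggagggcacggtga
NUF2 (chr1:163321754-163321983, plus strand): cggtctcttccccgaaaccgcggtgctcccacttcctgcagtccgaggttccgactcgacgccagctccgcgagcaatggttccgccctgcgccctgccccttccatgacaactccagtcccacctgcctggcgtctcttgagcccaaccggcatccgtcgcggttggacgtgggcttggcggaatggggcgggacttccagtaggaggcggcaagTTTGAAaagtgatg
BUB1B (chr15:40160869-40161098, plus strand): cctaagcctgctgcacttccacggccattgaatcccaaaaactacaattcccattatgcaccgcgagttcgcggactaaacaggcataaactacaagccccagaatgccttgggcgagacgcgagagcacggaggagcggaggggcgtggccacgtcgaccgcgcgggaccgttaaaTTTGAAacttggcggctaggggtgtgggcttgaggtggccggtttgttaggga
NUSAP1 (chr15:41332681-41332910, plus strand): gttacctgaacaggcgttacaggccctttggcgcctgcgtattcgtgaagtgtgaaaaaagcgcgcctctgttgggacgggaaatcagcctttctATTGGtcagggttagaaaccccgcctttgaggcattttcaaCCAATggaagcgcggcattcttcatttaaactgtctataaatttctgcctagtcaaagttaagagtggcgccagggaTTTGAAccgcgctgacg
PTTG1 (chr5:160421655-160421884, plus strand): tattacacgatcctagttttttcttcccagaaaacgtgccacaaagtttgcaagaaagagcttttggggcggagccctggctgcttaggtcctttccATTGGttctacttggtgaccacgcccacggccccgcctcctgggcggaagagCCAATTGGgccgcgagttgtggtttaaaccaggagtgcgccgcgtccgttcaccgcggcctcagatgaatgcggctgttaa
MKI67 (chr10:128126394-128126623, minus strand): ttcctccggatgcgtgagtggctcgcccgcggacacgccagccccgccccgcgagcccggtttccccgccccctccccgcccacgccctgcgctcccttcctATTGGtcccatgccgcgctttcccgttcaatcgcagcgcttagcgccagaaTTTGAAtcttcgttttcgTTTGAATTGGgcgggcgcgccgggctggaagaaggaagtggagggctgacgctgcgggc
KIF4A (chrX:70289904-70290133, plus strand): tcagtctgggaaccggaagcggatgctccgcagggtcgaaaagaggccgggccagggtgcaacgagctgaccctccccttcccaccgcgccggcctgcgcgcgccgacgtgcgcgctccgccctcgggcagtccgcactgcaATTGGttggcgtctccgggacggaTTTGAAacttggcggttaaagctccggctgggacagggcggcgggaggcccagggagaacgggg
CDC25B (chr20:3786751-3786980, plus strand): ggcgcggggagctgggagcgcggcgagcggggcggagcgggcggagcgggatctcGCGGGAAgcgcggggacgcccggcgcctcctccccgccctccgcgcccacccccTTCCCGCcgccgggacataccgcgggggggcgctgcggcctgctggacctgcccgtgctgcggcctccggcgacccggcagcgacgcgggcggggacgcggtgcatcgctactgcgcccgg
MKI67 and CDC20 each held 2 CHR and 2 CCAAT matches, one of each overlapping in MKI67, while CENPF (4 CCAAT) and PTTG1 (3 CCAAT) held no CHR match in this window. NUF2 and BUB1B held 1 CHR and no CCAAT match, and CDC25B held neither box but 2 E2F-type matches. Both sets of genes, those lower in SKmel147 and those higher in 501mel, thus included promoters with and without a CHR match. A match is a description of letters, not of a bound site.

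In SKmel147 the mitotic genes were mostly slightly lower in ARID2 KO lines, and 5 of 36 fell by the test. These were CENPF and NUF2 of the kinetochore, CDC20 of the anaphase-promoting complex, and the kinases PLK1 and AURKB. No member was called higher by edgeR's quasi-likelihood test, with 0 at an unadjusted p under 0.05 in that direction and 0 by DESeq2. Of all 18361 genes tested, 9.60% were called lower and 8.07% higher. The median log2 fold change of the members was -0.09, against -0.01 for all genes tested, and 29 members lay below 0 and 7 above. Against Par alone the median was 0.02 with 3 members called lower, and against NT alone it was -0.22, so the sign of the median depended on which control was used.

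CENPF, a large coiled-coil protein that loads onto kinetochores in G2, carried the largest change. It was at 416 and 358 CPM in the Par libraries, 609 and 545 CPM in NT, 329 and 325 CPM in KO1.4, 284 and 298 CPM in KO1.5 and 350 and 355 CPM in KO3.20. All 6 KO libraries lay below all 4 control libraries, the lower Par library (358 CPM) being close to KO3.20. The fold change was -0.55 ± 0.07 (adjusted p = 0.000237 by edgeR), and the single lines gave -0.53 (KO1.4), -0.70 (KO1.5) and -0.42 (KO3.20). Against NT alone it was -0.84, and against Par alone -0.26 (adjusted p = 0.0509 by edgeR), so the call was lost without NT.

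CDC20 activates the anaphase-promoting complex once the checkpoint is satisfied, and is also the subunit that the checkpoint captures. Its level was 179 and 193 CPM in Par, 145 and 158 CPM in NT, 134 and 129 CPM in KO1.4, 109 and 129 CPM in KO1.5 and 135 and 122 CPM in KO3.20. Every KO library was below every control library, here with Par, not NT, as the higher control. The fold change was -0.41 ± 0.07 (adjusted p = 0.00244 by edgeR), -0.56 against Par alone and -0.27 against NT alone (adjusted p = 0.0908 by edgeR).

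NUF2, a subunit of the NDC80 complex that grips microtubules at the kinetochore, was at 79.4 and 80.5 CPM in Par and at 103 and 82.0 CPM in NT. Its KO libraries read 59.3 and 68.2 CPM in KO1.4, 59.7 and 58.1 CPM in KO1.5 and 62.9 and 68.8 CPM in KO3.20. The groups did not overlap, and 1 NT library stood above the other 3 controls. The fold change was -0.46 ± 0.08 (adjusted p = 0.00295 by edgeR), and NUF2 passed against each control alone (-0.35 against Par, adjusted p = 0.0350, and -0.56 against NT by edgeR). NDC80, the partner of NUF2 in the same complex, had a log2 fold change of -0.03 ± 0.08 and was not called.

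CENPF, CDC20 and NUF2 were the 3 members called lower in each of the 3 KO lines, where 331 of the 18361 genes tested were lower and 3.39% were called with 1 sign in either direction. The count of members was 0 to 2 when any single library was left out, and 1 when any 1 KO line was left out or when Par alone was the control. Their libraries, with those of PLK1, made up the 4 members whose KO and control libraries did not overlap with KO lower, against 4.59% of genes tested.

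PLK1, the kinase that promotes mitotic entry and centrosome maturation, was at 109 and 128 CPM in Par, 108 and 107 CPM in NT, 94.4 and 93.5 CPM in KO1.4, 77.7 and 85.2 CPM in KO1.5 and 101 and 93.4 CPM in KO3.20. Its fold change was -0.32 ± 0.07 (adjusted p = 0.0107 by edgeR), it was called in KO1.5 alone of the 3 lines (-0.47), and the call was lost without KO1.5 (-0.23, adjusted p = 0.0833 by edgeR) and against NT alone (-0.25, adjusted p = 0.112 by edgeR). AURKB, the kinase of the chromosomal passenger complex, was at 39.9 and 43.4 CPM in Par and at 45.7 and 52.9 CPM in NT. In the KO lines it was at 42.9 and 41.6 CPM in KO1.4, 31.3 and 37.7 CPM in KO1.5 and 35.6 and 35.1 CPM in KO3.20, so KO1.4 overlapped the controls. Its fold change was -0.28 ± 0.08 (adjusted p = 0.0336 by edgeR). Against Par alone it was -0.16 (adjusted p = 0.302 by edgeR), and AURKB was not called without KO1.5 (0.119), without KO3.20 (0.155) or when any of 7 of the 10 single libraries was left out (adjusted p = 0.0867 to 0.111 by edgeR). Only the first Par, the first NT and the second KO1.5 library could be left out with the call kept.

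TPX2, which activates AURKA and nucleates spindle microtubules, was the next member by p. It was at 451 and 405 CPM in Par, 550 and 474 CPM in NT, 410 and 442 CPM in KO1.4, 420 and 418 CPM in KO1.5 and 370 and 363 CPM in KO3.20. KO1.4 and KO1.5 lay within the Par range and KO3.20 lay below it. Its fold change of -0.22 ± 0.07 missed the threshold (adjusted p = 0.0514 by edgeR), while DESeq2 called it (adjusted p = 0.0450), as did edgeR against NT alone (-0.35, adjusted p = 0.0235). Against Par alone it was -0.09 (adjusted p = 0.534 by edgeR). Cyclin B1 (CCNB1), the regulatory partner of CDK1, had a log2 fold change of 0.00 ± 0.07, and none of the 5 central spindle and cytokinesis genes, the 8 spindle motors and microtubule factors or the 2 chromosome genes TOP2A and MKI67 was called by edgeR in this comparison.

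**Figure D1:**
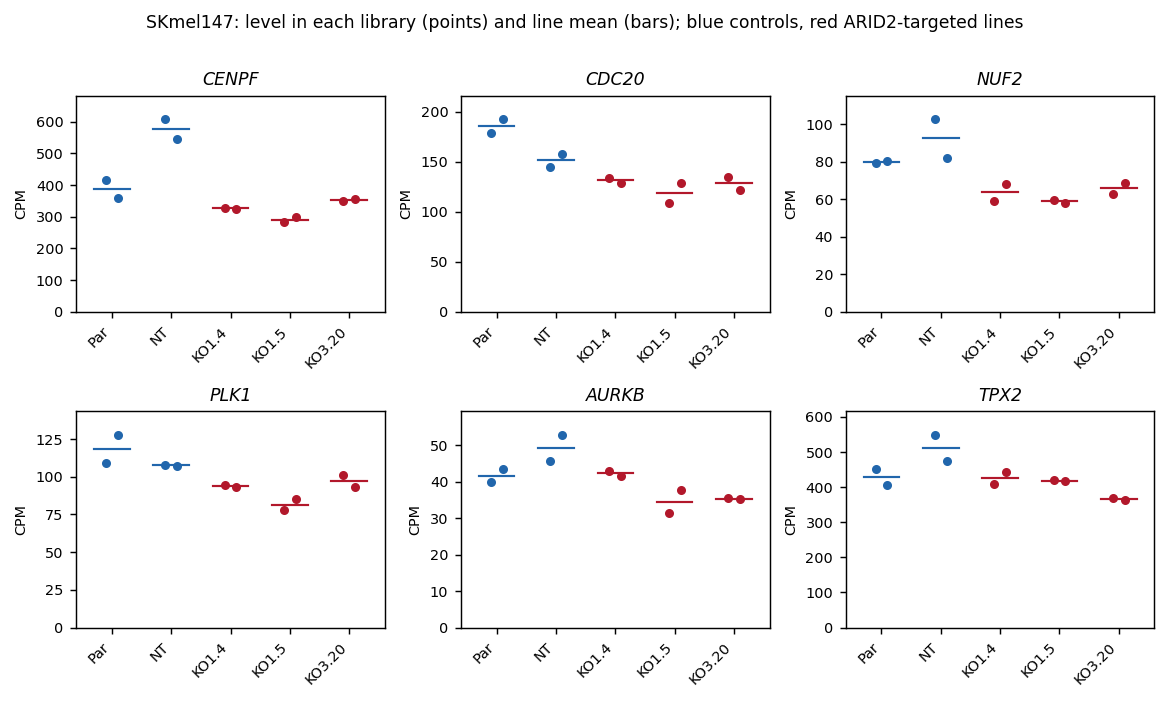
CPM (TMM-scaled, vertical axis) of 6 mitotic genes in each SKmel147 library, with lines on the horizontal axis, 1 point per library and a bar at each line's mean. For CENPF, CDC20, NUF2 and PLK1 all 6 KO points lie below all 4 control points, and for AURKB and TPX2 the points of at least 1 KO line overlap those of the controls.

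The 3 SKmel147 KO lines each had few called members. KO1.4 had 3 lower (4.80% of genes tested were lower and 3.97% higher), KO1.5 had 5 (5.77% and 5.42%) and KO3.20 had 5 (6.11% and 6.49%). In each of these lines 0 members were higher by edgeR, with 0 at an unadjusted p under 0.05. Member medians were -0.06, -0.17 and -0.03. An F test among the KO lines called 0 members by edgeR, against 5.46% of genes tested, and 5 members had an unadjusted p under 0.05 in it. KIF20A, which brings Aurora B to the central spindle, had the lowest adjusted p there, 0.186 by edgeR. UBE2C, the ubiquitin-conjugating enzyme of the anaphase-promoting complex, was called in KO3.20 only (-0.38), as was TPX2 (-0.35). Both genes lie on chromosome 20, where the median gene of KO3.20 was at -0.28, and the part of that shift in their values was not tested.

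The 2 SKmel147 controls also differed in these genes. NT minus Par had 3 members higher and 0 lower, with a median of 0.23, where 3.82% of genes tested were called higher and 5.45% lower. At an unadjusted p under 0.05, 15 members were higher and 1 was lower, and DESeq2 called 5 higher and 0 lower. CENPF (0.58), TOP2A (0.46), which untangles sister chromatids, and NUSAP1 (0.36), which bundles spindle microtubules, passed. The summed CPM of the 36 genes was 6686 and 6252 in Par, 8256 and 7141 in NT, 6380 and 6677 in KO1.4, 6276 and 6012 in KO1.5 and 6686 and 6824 in KO3.20. Both NT libraries were above all others, and the KO libraries lay around the Par libraries. The 3 calls became 0 without the first NT library and 7 without the second. Fold change in NT minus Par also ran with GC content across genes (Spearman's rho -0.405, a description over genes), and the members had a median transcript GC of 43.8% against 47.7% for all genes tested. After a correction for GC and length 10 members were called lower in KO against controls and 10 higher in NT against Par. In KO against controls that correction also moved all genes called, in either direction, from 3245 to 5390 of 18361. Marker lists of other cell types moved with the same groups. The endothelial sum was 12.5 to 31.4 CPM in controls and 4.32 to 9.87 CPM in KO libraries. Most of that sum was ROBO4 and TIE1, while the defining markers PECAM1 and CDH5 were at most 0.266 and 0.0944 CPM. The fibroblast sum was 9.69 to 11.6 CPM in controls and 12.6 to 18.1 CPM in KO libraries, with COL1A1 higher by 1.67, and among epithelial markers KRT14 was higher by 1.38 while the list's sum overlapped between groups. Their part in the mitotic values was not tested.

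In 501mel the mitotic genes were mostly higher in ARID2 KO lines, and 19 of 36 rose, with 0 called lower by edgeR, 0 lower at an unadjusted p under 0.05 and 0 lower by DESeq2. Many genes moved in the same comparison, since 24.7% of the 16230 genes tested were called higher and 26.5% lower, 51.3% in all. The member median was 0.16, against -0.01 for all genes tested, with 30 members above 0 and 6 below. The summed CPM of the 36 genes was 4943 and 4857 in Par, 4777 and 4812 in NTC, 5263 and 5321 in KO1.8 and 5750 and 5832 in KO5.2. All KO libraries were above all controls, and KO5.2 was above KO1.8. With the line, not the library, as the replicate 0 of the 36 were called by edgeR, 6 being higher at an unadjusted p under 0.05, and that fit called 0 of 17114 genes in all. Limma's voom, with a random term for the line, called 4 members higher, with 942 of 16230 genes called in all. In SKmel147 both fits called 0 members, voom calling 597 of 18361 genes, 5 being lower at an unadjusted p under 0.05 with the line as the replicate and 13 of 19729 genes being called in all.

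All 8 spindle motors and microtubule factors rose in 501mel, with a range of 0.17 to 0.46, against 24.7% of all genes tested. In KO1.8 alone 5 of the 8 passed. KIF4A, a chromokinesin that also sets the length of the central spindle, was at 75.0 and 76.1 CPM in Par, 68.3 and 68.5 CPM in NTC, 110 and 106 CPM in KO1.8 and 89.2 and 90.8 CPM in KO5.2. The KO libraries did not overlap the controls, and KO1.8 was the higher of the KO lines, unlike most members. Its fold change was 0.45 ± 0.04 (adjusted p = 3.06e-07 by edgeR). NUSAP1 was at 149 and 150 CPM in Par, 136 and 138 CPM in NTC, 175 and 171 CPM in KO1.8 and 220 and 227 CPM in KO5.2. The order of the lines was thus the same in both libraries, with a fold change of 0.46 ± 0.04 (adjusted p = 1.36e-07 by edgeR). KIF2C, a kinesin that depolymerises microtubules to correct faulty attachments, was at 155 and 148 CPM in Par, 147 and 146 CPM in NTC, 165 and 168 CPM in KO1.8 and 200 and 193 CPM in KO5.2. Its rise was 0.28 ± 0.04 (adjusted p = 2.17e-05 by edgeR). TPX2 (0.17) did not overlap the controls either, while KIF11 (0.17), the motor that pushes spindle poles apart, HMMR (0.17) and DLGAP5 (0.19), both spindle proteins, were called but overlapped them. In KO1.8 the value was 0.01 for KIF11, 0.04 for HMMR and 0.09 for TPX2, none called, against 0.33, 0.30 and 0.25 in KO5.2. Against Par alone DLGAP5 was at 0.04 and HMMR at 0.07, and neither passed. AURKA, the centrosomal Aurora kinase, was at 101 and 91.5 CPM in Par, 78.6 and 81.7 CPM in NTC, 103 and 107 CPM in KO1.8 and 97.7 and 97.0 CPM in KO5.2. One Par library lay within the KO range and NTC below it. The fold change was 0.20 ± 0.04 (adjusted p = 0.00113 by edgeR), and against Par alone the value was 0.07 (adjusted p = 0.301 by edgeR).

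At the kinetochore and checkpoint 1 of 8 members rose, where 24.7% of all genes tested did. BUB1B, which encodes BUBR1 of the checkpoint complex that restrains CDC20, was at 110 and 107 CPM in Par, 98.7 and 102 CPM in NTC, 138 and 145 CPM in KO1.8 and 148 and 153 CPM in KO5.2. All KO libraries stood clear of the controls, and its fold change of 0.49 ± 0.04 had the smallest p of the members (adjusted p = 1.35e-07 by edgeR). The 7 others did not pass, among them its relative BUB1 (0.09), the centromere histone CENPA (0.10), NDC80 (0.06), NUF2 (0.09) and CENPF (-0.06). BUB1B overlaps the read-through gene BUB1B-PAK6 on the same strand, and its count is uncertain to that extent.

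Of the 3 genes of the anaphase-promoting complex and securin, PTTG1 rose, a share near that of all genes tested (24.7%). PTTG1 is securin, the inhibitor of separase that is destroyed at anaphase. It was at 47.9 and 55.5 CPM in Par, 45.3 and 44.4 CPM in NTC, 54.3 and 57.5 CPM in KO1.8 and 77.1 and 78.9 CPM in KO5.2. KO1.8 overlapped Par, KO5.2 lay above all other libraries, and the fold change was 0.46 ± 0.05 (adjusted p = 4.10e-06 by edgeR). PTTG1 has near-identical copies in PTTG2 and PTTG3P, as KIF4A has in KIF4B, so both values are uncertain where reads could be split. CDC20 (-0.04) and UBE2C (0.01) did not pass.

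Among the 8 genes of entry into mitosis, CCNB2, CDC25B, CDK1 and FOXM1 rose, against 24.7% of all genes tested. Cyclin B2 (CCNB2) was at 86.0 and 92.7 CPM in Par, 75.3 and 76.7 CPM in NTC, 100 and 98.0 CPM in KO1.8 and 109 and 112 CPM in KO5.2. KO stood clear of both controls, and its fold change was 0.34 ± 0.04 (adjusted p = 7.89e-06 by edgeR). CDC25B, the phosphatase that starts cyclin B and CDK1 activation at the centrosome, was at 148 and 150 CPM in Par, 132 and 133 CPM in NTC, 172 and 173 CPM in KO1.8 and 189 and 197 CPM in KO5.2. These groups did not overlap either, with a fold change of 0.38 ± 0.04 (adjusted p = 9.86e-07 by edgeR). CDK1 (0.17) was at -0.03 without KO5.2, and the transcription factor FOXM1 (0.15) was at -0.04, while CCNB1 was at 0.00 and PLK1 at -0.01.

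Both genes of mitotic chromosomes rose, where 24.7% of all genes tested did. MKI67, the Ki-67 protein that coats mitotic chromosomes and serves as the standard proliferation marker, was at 442 and 379 CPM in Par, 557 and 518 CPM in NTC, 660 and 619 CPM in KO1.8 and 657 and 634 CPM in KO5.2. NTC was above Par and below every KO library, with a fold change of 0.45 ± 0.05 (adjusted p = 2.93e-06 by edgeR). TOP2A was at 482 and 475 CPM in Par, 407 and 410 CPM in NTC, 484 and 502 CPM in KO1.8 and 538 and 564 CPM in KO5.2. The lower KO1.8 library lay just above the higher Par library, and the fold change was 0.24 ± 0.04 (adjusted p = 6.11e-05 by edgeR).

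In the chromosomal passenger complex BIRC5 (survivin) rose and AURKB (-0.03) did not pass. BIRC5 was at 90.6 and 92.4 CPM in Par, 89.7 and 90.0 CPM in NTC, 102 and 99.7 CPM in KO1.8 and 106 and 104 CPM in KO5.2, a change of 0.18 ± 0.04 (adjusted p = 0.00105 by edgeR). Of the 5 genes of the central spindle and cytokinesis, KIF23 and PRC1 rose, again against 24.7%. KIF23, the motor of centralspindlin, was at 200 and 203 CPM in Par, 174 and 179 CPM in NTC, 220 and 234 CPM in KO1.8 and 228 and 239 CPM in KO5.2, a change of 0.29 ± 0.04 (adjusted p = 1.94e-05 by edgeR). PRC1, the bundler of antiparallel microtubules, rose by 0.24. KIF20A (-0.06), ANLN (-0.03) and ECT2 (0.03), which act at the cleavage furrow and midzone, did not pass.

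**Figure D2:**
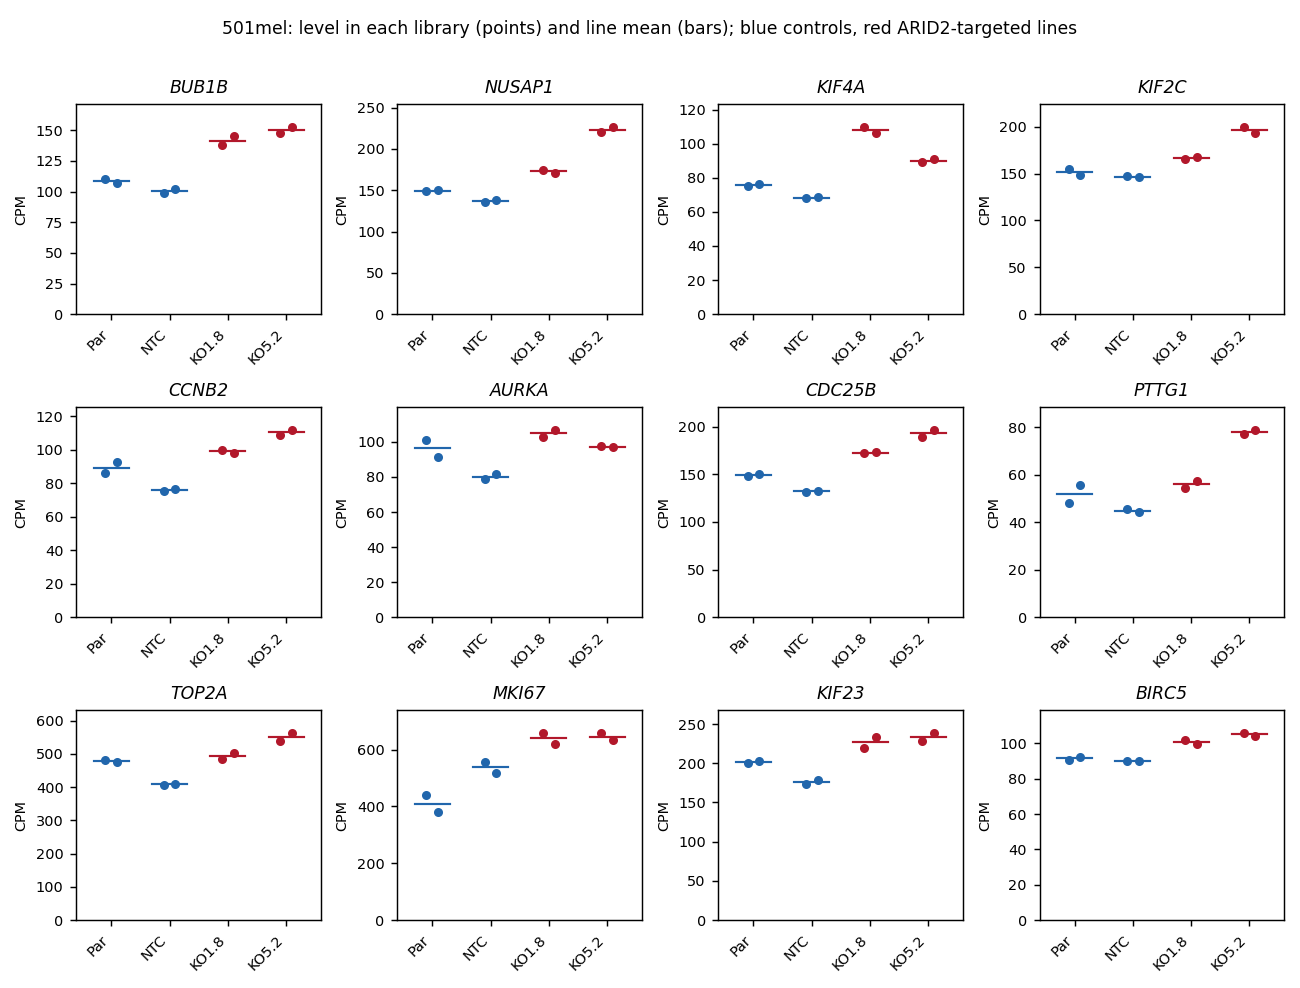
CPM (TMM-scaled, vertical axis) of the 12 mitotic genes called in both KO lines in each 501mel library, with lines on the horizontal axis, 1 point per library and a bar at each line's mean. BUB1B, NUSAP1, KIF4A and CDC25B have all KO points above all control points, PTTG1 separates mainly in KO5.2, and AURKA overlaps Par.

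In both 501mel KO lines 12 members were called higher: BUB1B, NUSAP1, CCNB2, AURKA, TOP2A, MKI67, KIF23, KIF2C, KIF4A, BIRC5, PTTG1 and CDC25B, against 12.3% of genes tested. None was called lower in both, against 11.7%. KO and control libraries did not overlap, with KO higher, for 11 members, against 13.2% of genes tested. KO1.8 alone had 13 members higher and 1, TTK at -0.19, lower (20.1% of genes in each direction) with a median of 0.07, and KO5.2 had 22 higher (26.5%) and 0 lower (27.0%) by edgeR, with 0 lower at an unadjusted p under 0.05, and a median of 0.22. These lines share their controls. Tested against each other, KO5.2 minus KO1.8 had 17 members higher (20.6%) and 2 lower (20.7%), with a median of 0.14. Without 1 of the 4 libraries 10 to 15 were higher, 10 without the first KO1.8 library and 11 without the second KO5.2 library. TTK, the checkpoint kinase MPS1, had the smallest p of that comparison. It was at 65.0 and 69.3 CPM in Par, 52.8 and 55.0 CPM in NTC, 51.2 and 54.5 CPM in KO1.8 and 73.9 and 80.7 CPM in KO5.2. KO1.8 matched NTC and KO5.2 lay above both controls, a difference of 0.55 between the KO lines (adjusted p = 1.57e-05 by edgeR). PTTG1 (0.48), CDK1 (0.39), FOXM1 (0.39), NUSAP1 (0.37), CDC25C (0.36) and KIF11 (0.32) were also higher in KO5.2, and KIF4A (-0.26) and DLGAP5 (-0.20) were lower.

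NTC and Par, neither of them labelled as an ARID2 KO, differed in 12 members. In NTC minus Par 3 members were higher (6.77% of genes) and 9 lower (8.93%), with a median of -0.10. MKI67 (0.39), KIF11 (0.21) and CDC20 (0.18) were higher. TTK (-0.32), NDC80 (-0.30), DLGAP5 (-0.29), AURKA (-0.26), CCNB2 (-0.23), TOP2A (-0.23), HMMR (-0.21), KIF23 (-0.19) and CDC25B (-0.17) were lower. Leaving out 1 library of either line left 1 or 2 members higher and 1 to 6 lower, the fewest without the first NTC library. Against Par alone 6 members were called higher in both KO lines. Fibroblast markers summed to 1.70 to 2.54 CPM in controls and to 0.368 to 0.832 CPM in KO libraries, and immune, epithelial and endothelial sums were at most 1.18 CPM.

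**Figure D3:**
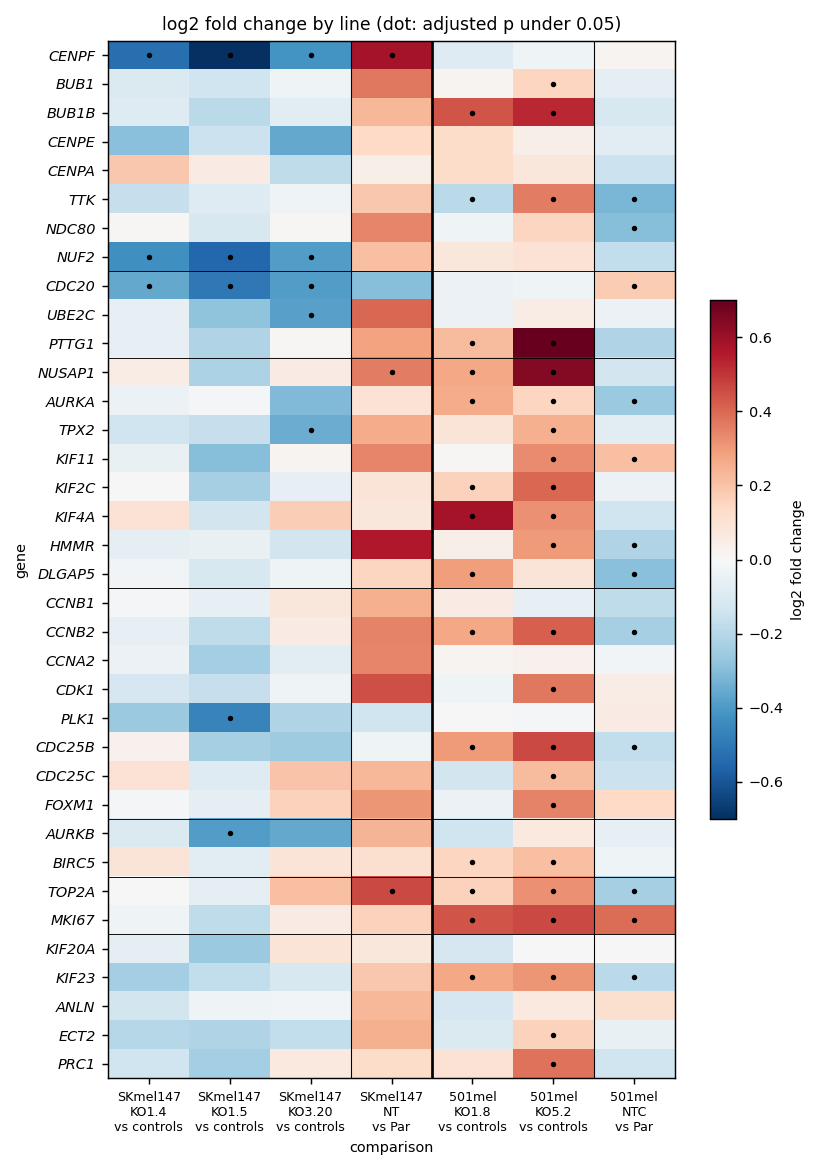
Log2 fold change of each of the 36 members (vertical position) in each KO line against the mean of its 2 controls and in the transduced control against Par (columns), coloured from lower (blue) to higher (red), with a dot where the adjusted p was under 0.05. The KO5.2 column holds 22 called members, each SKmel147 KO column at most 5, and the NT and NTC columns 3 and 12.

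Many members lay on chromosomes of which the typical gene also moved in 501mel. On chromosome 15 the median gene tested was at 0.22 in KO against controls, with 52.7% of its genes called higher, and all 5 members there (BUB1B, NUSAP1, CCNB2, KIF23 and PRC1) rose. On chromosome 20 the median was 0.24, with 58.6% called higher, and 3 of 4 members rose. On the 4 chromosomes with a median of at least 0.1, 9 of 11 members rose with a median of 0.29. On these 4, 41.1% (X) to 58.6% (20) of the genes tested were called higher. On the 10 with a median within 0.1 of 0, 9 of 23 rose with a median of 0.09. On those 10, 12.9% (chromosome 7) to 32.4% (chromosome 2) of the genes tested were called higher. DLGAP5 rose by 0.19 on chromosome 14, whose median was -0.23. These values pooled lines that differed. DLGAP5 was at 0.29 in KO1.8, where the chromosome median was -0.04. In KO5.2 it was at 0.09 and not called, where the chromosome median was -0.41.

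Against its nearest tested genes, 20 on each side in most cases, BUB1B (0.49) stood beside a neighbour median of 0.25, NUSAP1 (0.46) beside 0.29, CDC25B (0.38) beside 0.41, KIF23 (0.29) beside 0.19 and CCNB2 (0.34) beside 0.16. KIF4A (0.45) on chromosome X stood beside 0.04, which pooled 0.39 in KO1.8 (KIF4A 0.58) and -0.18 in KO5.2 (KIF4A 0.32), PTTG1 (0.46) beside 0.18 and MKI67 (0.45) beside 0.10. CDC25B was thus no higher than its neighbours, while MKI67 was above its neighbours, and KIF4A was above its own in each KO line. Over the 36 genes the median distance from the neighbours was 0.12, with 29 above them. The part of the shifted chromosomes in these values was not tested.

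In SKmel147 the 3 genes lower in every KO line all lie on chromosome 1, whose median gene was at -0.10 with 18.7% called lower, and the remaining member there, KIF2C, was at -0.09 and not called. Neighbour medians were -0.22 beside CENPF (-0.55), -0.13 beside CDC20 (-0.41) and -0.17 beside NUF2 (-0.46), so each gene was further from 0 than its neighbours. In NT minus Par the genes around CENPF had a median of 0.61, against 0.58 for CENPF itself, and those around CDC20 had -0.38, against -0.30. Over the 36 genes the median distance from neighbours in KO against controls was -0.11, with 5 above them.

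**Figure D4:**
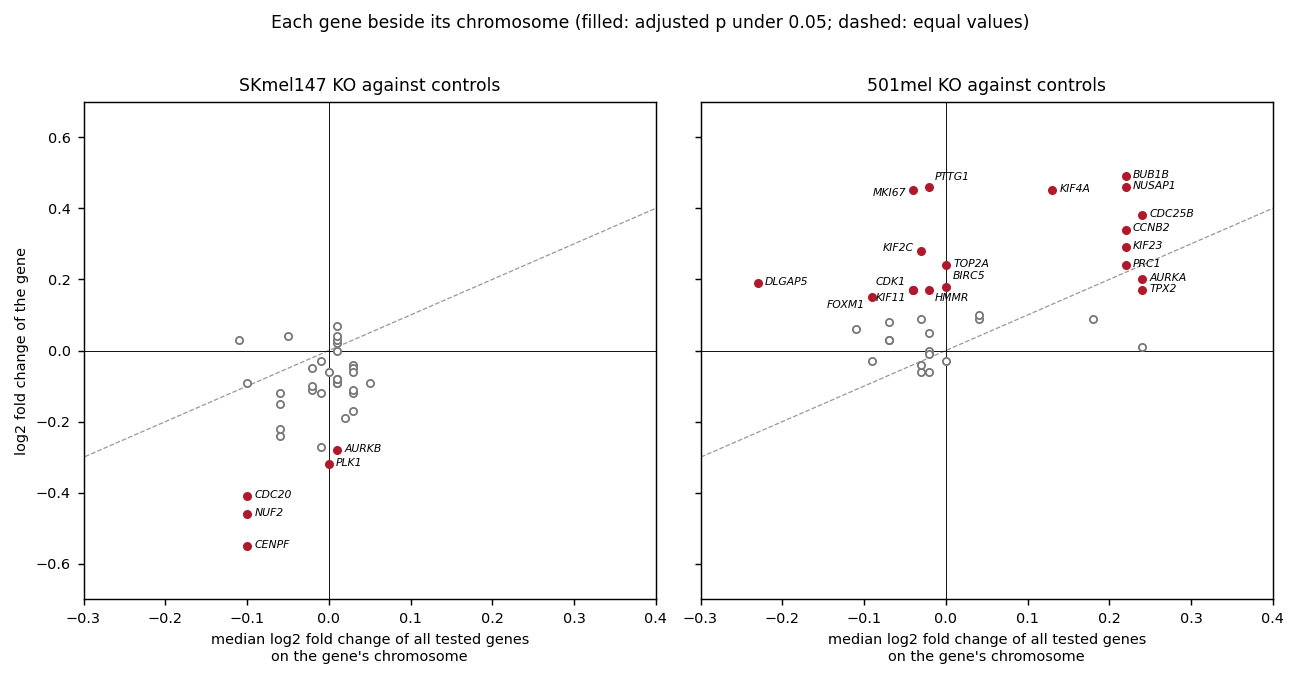
Log2 fold change of each member in KO against controls (vertical axis) over the median log2 fold change of all tested genes on its chromosome (horizontal axis), for both cell lines, with filled points for called members and a dashed line of equal values. In 501mel 8 called members lie at chromosome medians of 0.22 and 0.24, and in SKmel147 CENPF, NUF2 and CDC20 lie at -0.10.

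With the library as the replicate, the KO effect on the members differed between the cell lines. In a joint test of the 501mel effect minus the SKmel147 effect 17 of 36 members were called higher and 0 lower by edgeR, with 0 lower at an unadjusted p under 0.05 and 0 lower by DESeq2. Of the 19518 genes tested, 9.99% were called higher and 11.3% lower. The member median was 0.27, against -0.02 for all genes tested, and 34 members lay above 0. NUSAP1 (0.49 ± 0.08, adjusted p = 0.000214 by edgeR), BUB1B (0.60 ± 0.09, 0.000215), PTTG1 (0.53 ± 0.09, 0.000370), MKI67 (0.49 ± 0.09, 0.000569), CENPF (0.48 ± 0.09, 0.000665) and KIF4A (0.40 ± 0.07, 0.000706) had the smallest p. For CENPF, NUF2 (0.53), CDC20 (0.37) and PLK1 (0.30) the difference came with a fall in SKmel147 and no call in 501mel. For NUSAP1, BUB1B, PTTG1, MKI67 and KIF4A it came with a rise in 501mel and no call in SKmel147. The others called were KIF2C (0.37), KIF23 (0.46), TPX2 (0.38), PRC1 (0.34), CCNB2 (0.39), CDC25B (0.52), AURKA (0.32) and KIF11 (0.27). By role, 6 of 8 spindle motors and microtubule factors, 3 of 8 kinetochore genes, 3 of 8 entry genes, 2 of 3 genes of the anaphase-promoting complex and securin, 2 of 5 cytokinesis genes and 1 of 2 chromosome genes were called. Beside the cell line, the groups differ in vector system and in the controls, and these cannot be told apart here. The joint test was not run with the line as the replicate, with voom or with 1 control alone. Within each cell line 0 members were called by edgeR with the line as the replicate.

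**Figure D5:**
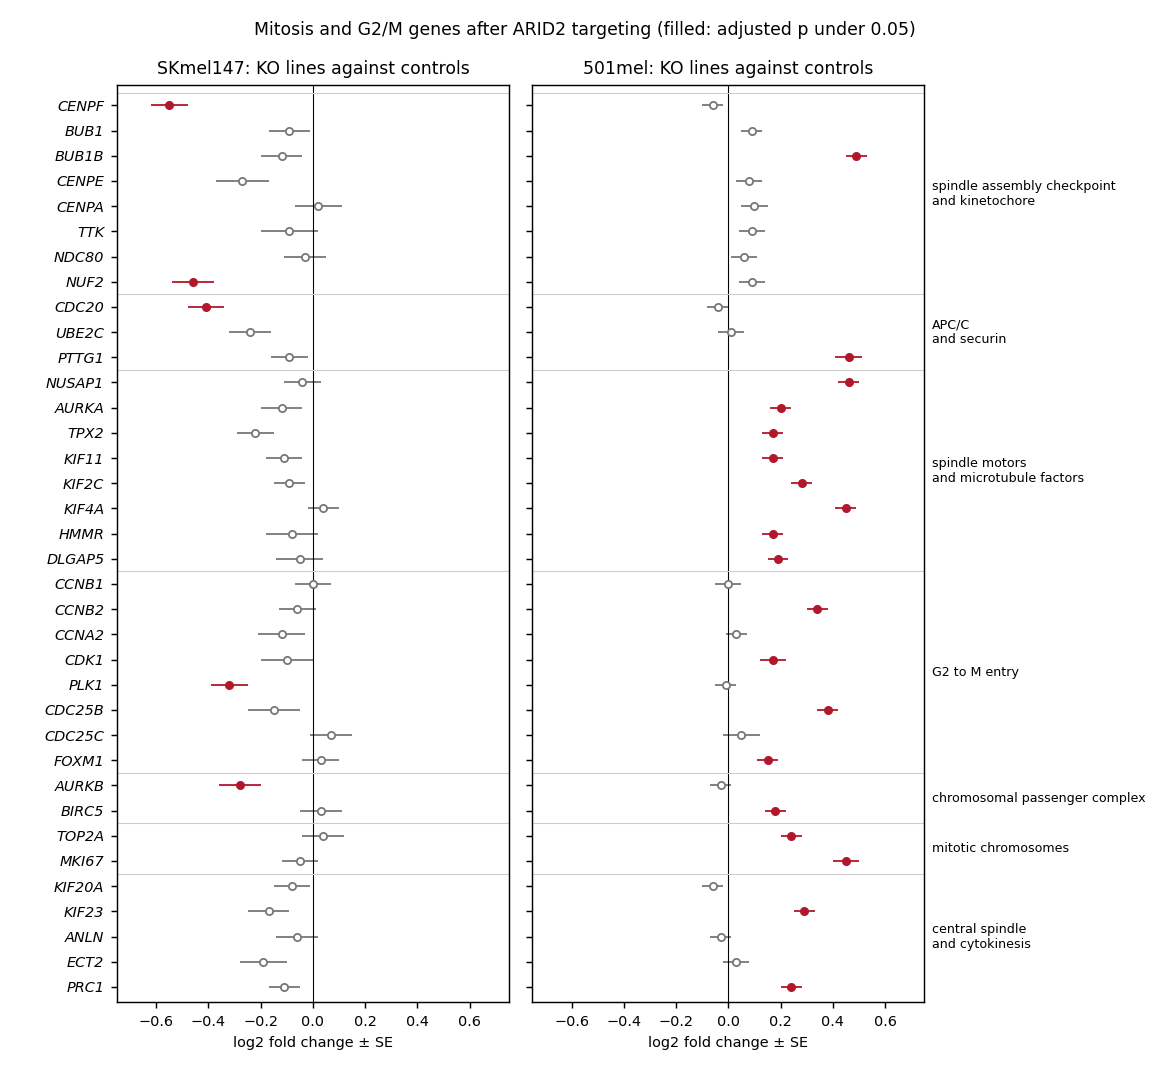
Log2 fold change with its SE for each of the 36 members in KO against controls, SKmel147 and 501mel side by side, with members grouped by role and the called ones marked. In SKmel147 the 5 called members lie between -0.28 and -0.55, and in 501mel the 19 called members lie between 0.15 and 0.49.

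Compared per kilobase of all exons joined, TPX2 was the most abundant member in the controls of both cell lines (77.8 CPM per kb in 501mel and 133 CPM per kb in SKmel147). TOP2A was at 67.0 and 101 CPM per kb, and CDC25C, the phosphatase of CDK1, was the lowest (4.20 and 5.61 CPM per kb). The members made up 0.599% to 0.813% of counts in SKmel147 and 0.476% to 0.570% in 501mel.

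Other genes of the cell cycle were counted in lists, to be read against 8.07% of all genes higher and 9.60% lower in SKmel147, and 24.7% higher and 26.5% lower in 501mel. Several shares lay near these. Of 49 other mitotic genes, 0 were higher and 8 lower in SKmel147 (median -0.15), among them CIT (-0.52), a kinase of the midbody, TROAP (-0.46), MELK (-0.32) and RACGAP1 (-0.30), the partner of KIF23 in centralspindlin. By line, KO1.5 had 8 lower (5.77% of all genes), while KO1.4 and KO3.20 had 1 lower each (4.80% and 6.11%). NT minus Par had 3 higher and 0 lower (3.82% and 5.45% of all genes), with a median of 0.17. The SKmel147 calls of TROAP and MELK were each lost in 10 of 22 alternative fits. In 501mel 26 were higher and 4 lower (median 0.11), among them the kinetochore genes CENPI (1.00) and CASC5 (0.45), the minus-end motor KIFC1 (0.44), and MELK (-0.36). The 501mel KO lines differed in this list. KO1.8 had 12 higher and 10 lower (20.1% of all genes in each direction). KO5.2 had 30 higher and 4 lower (26.5% and 27.0% of all genes). KO5.2 minus KO1.8 had 23 higher and 3 lower (20.6% and 20.7% of all genes). In the joint test 21 were higher in 501mel and 0 lower (median 0.26), against 9.99% and 11.3% of all genes in that test.

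Of the 16 genes of the anaphase-promoting complex, 1 was higher and 1 lower in SKmel147 (CDC16 0.28, ANAPC7 -0.41), and 5 were higher and 3 lower in 501mel (CDC16 0.40, ANAPC16 0.34, CDC26 -0.48, ANAPC2 -0.23). Of 22 alternative fits in SKmel147, the call was lost in 11 for CDC16, in 1 for ANAPC7 and, from the next list, in 15 for CDCA5 and 3 for NCAPG. Condensin and cohesin genes had 0 higher and 2 lower of 20 in SKmel147 (NCAPG -0.30, CDCA5 -0.25) and 8 higher and 6 lower in 501mel, where NCAPH2 (0.46) and NCAPH (-0.52), the matching subunits of the 2 condensins, moved in opposite directions. Regulators of the G2 checkpoint and of mitotic entry had 1 higher and 5 lower of 16 in SKmel147. CDKN1A, the p21 inhibitor of CDKs, rose by 0.55 there, with 1.06 in KO1.5 and no call in KO1.4 (0.31) or KO3.20 (0.28), and CDC25A (-0.56), CKS1B (-0.48) and MASTL (-0.47), the kinase that shields CDK1 substrates from dephosphorylation, fell. In 501mel 5 of 14 tested were higher and 3 lower, with CDKN3 at 0.52, BORA, an activator of PLK1, at 0.38, ENSA at 0.25 and MASTL at -0.49. MASTL was therefore lower in both cell lines.

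Genes of the DREAM and MuvB complexes, which set the timing of the members, had 1 higher and 2 lower of 12 in SKmel147 (RBBP4 0.27, LIN9 -0.46, MYBL2 -0.35). In 501mel 3 were higher and 2 lower (RBL1 0.24, RBBP4 0.18, TFDP2 -0.51, LIN52 -0.33). The share higher was near that of all genes in both cell lines (8.07% in SKmel147 and 24.7% in 501mel). Of 22 alternative fits in SKmel147, the call was lost in 11 for MYBL2, 9 for RBBP4 and 3 for LIN9. MYBL2 encodes B-MYB. Of 32 genes of DNA replication, 0 were higher and 5 lower in SKmel147 (median -0.11), among them CDC45 (-0.52), MCM5 (-0.45), RFC5 (-0.37) and MCM10 (-0.36). The 2 SKmel147 controls also differed in this list. NT minus Par had 7 higher and 1 lower (3.82% and 5.45% of all genes), with a median of 0.24. MCM5 ran from -0.79 to -0.11 over 22 alternative fits, and its call was lost in 3 of them. In 501mel 11 were higher and 7 lower (median 0.04), with RRM2 (0.66), MCM3 (0.58) and PCNA (0.56) higher and MCM10 (-0.48) lower. In the joint test 11 replication genes were higher in 501mel and 1 lower (median 0.21), against 9.99% and 11.3% of all genes in that test.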

How the data were processed

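The deposited values were the authors' raw counts of reads for each gene symbol and library. STAR 2.6.0, featureCounts and the builds GRCh37 and hg19 appear in the work, per the submitters' processing notes. Not given in the sources used here are the release of the annotation, the strand option and how multi-mapping reads were handled. The kit was directional, per the labels' protocols. Genes that share sequence with a near-identical copy, and genes that overlap another gene or an antisense RNA, are therefore uncertain. Among the members these include PTTG1 and KIF4A, BUB1B (BUB1B-PAK6), CENPA (SLC35F6), PRC1 (PRC1-AS1), NUF2 (RGS5), HMMR (HMMR-AS1), PLK1 (ERN2), CCNA2 (EXOSC9), KIF20A (CDC23) and FOXM1 (RHNO1).

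Each cell line was fitted separately in R 4.3.3 with edgeR 4.0.16, using TMM scaling, filterByExpr by line and 1 coefficient per line, on all genes that passed (18361 in SKmel147 and 16230 in 501mel). The quasi-likelihood test was used, and a gene was called at a Benjamini-Hochberg adjusted p under 0.05 over all genes tested. KO against controls compared the average over KO lines with the average of Par and its transduced control, each line weighing the same. The difference between cell lines was the interaction in a joint fit of all 18 libraries (19518 genes). DESeq2 1.42.0 and limma 3.58.1 served as alternatives, beside other controls, a correction for GC content and length, the line as the replicate, lines and libraries left out in turn, and a replicate block. The procedure was tested on simulated data. These held no spread between lines, so they cannot show how the calls fare under such spread. Chromosome, neighbours, GC content and length came from GENCODE 29, to which 35386 of 56629 symbols matched (all 36 members), and whose build differs from that of the files. Neighbours were the 20 nearest tested genes on each side. Promoter letters came from RefSeq on GRCh38.p14, and no coordinate of the counts is involved.

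The members and the gene lists were chosen with earlier results of these data known. Values per library were given for members called in KO against controls and with 1 sign in every KO line, filled to 6 by the smallest p in SKmel147, and for up to 6 members with the smallest p of the difference between cell lines. Other called members were given by their fold change, and other lists by at most 4 called genes with the smallest p per cell line. TTK was added after its values were seen.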

Additional observations from a re-analysis of the deposited data

Results flagged for a closer look

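Among the 4 control libraries of SKmel147, 1 library stood far from the other 3 for 3 members. PLK1 was at 128 CPM in the second Par library and at 107 to 109 CPM in the others. NUF2 was at 103 CPM in the first NT library against 79.4 to 82.0 CPM, and PRC1 at 248 CPM in that library against 210 to 214 CPM. In all 144 groups of libraries were examined, of which chance marks about 1 in 20, and none was marked in 501mel.

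With the library as the replicate, the ARID2 KO effect differed between the cell lines for 17 members by edgeR's quasi-likelihood test with Benjamini-Hochberg adjustment. In each the 501mel value was above the SKmel147 value. That joint test was not run with the line as the replicate, a setting in which 0 members were called within each cell line. Vector system and controls differed along with the cell line. On the log2 scale the difference was 0.60 for BUB1B, 0.53 for NUF2 and PTTG1, 0.52 for CDC25B, 0.49 for NUSAP1 and MKI67, 0.48 for CENPF and 0.46 for KIF23. It was 0.40 for KIF4A, 0.39 for CCNB2, 0.38 for TPX2, 0.37 for CDC20 and KIF2C, 0.34 for PRC1, 0.32 for AURKA, 0.30 for PLK1 and 0.27 for KIF11.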

How the results depend on the processing

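The 5 SKmel147 members called lower became 3 with Par alone as control, 3 without line KO1.5, 10 with the GC and length correction, 0 with the line as the replicate, 0 with voom and the line as a block, 7 with the DESeq2 test, 6 without the low-count filter, and 4 to 7 without any 1 library. Their median moved to 0.02 with Par alone and to -0.22 with NT alone, and to between -0.17 and -0.02 without 1 library, -0.02 without the first NT library and -0.17 without the second. The 3 called lower in every SKmel147 KO line became 1 with Par alone, 1 without any KO line and 0 to 2 without 1 library. For NT against Par the 3 higher became 5 with DESeq2, 10 with the correction and 0 to 7 without 1 library, and the F test among KO lines went from 0 to 8 with the correction. DESeq2 was not run for that F test. With the correction all genes called in SKmel147 KO against controls, in either direction, went from 3245 to 5390 of 18361.

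In 501mel the 19 higher became 0 with the line as the replicate, 4 with voom, and 18 or 19 without 1 library. The 0 lower became 1 with NTC alone, 1 without line KO5.2 and 0 or 1 without 1 library. The 12 higher in both KO lines became 6 with Par alone and 8 to 13 without 1 library. Leaving out KO1.8 or KO5.2 leaves 1 KO line, whose own counts are 22 higher (KO5.2) and 1 lower (KO1.8). NTC against Par gave 1 or 2 higher and 1 to 6 lower without 1 library, and KO5.2 against KO1.8 gave 10 to 15 higher and 1 or 2 lower. Without line KO5.2 the values of CDK1 (-0.03), FOXM1 (-0.04), ANAPC2 (0.02) and STAG2 (-0.07) changed sign. The 17 members of the cell-line difference became 26 with the correction and 14 to 22 without 1 library. The cause of these changes was not tested. The cell-line difference was not run with the line as the replicate, with voom or with 1 control alone. Single-gene values that kept direction and side of the threshold, and list counts that stayed close, numbered 2493 together. Among single-gene values 282 lost the call, 5 gained it and 4 changed sign, and 166 list counts moved.

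Replicate numbers were not taken to pair the libraries, since the labels do not say so and not every correlation was over 0.1: same-numbered libraries of different lines had correlations of 0.0447 to 0.365 in 501mel (5 of 6 above 0.1) and -0.718 to 0.765 in SKmel147 (4 of 10). With a replicate block the counts were 5 lower in SKmel147, 19 higher in 501mel and 16 for the difference, and 1 in every SKmel147 KO line. The block moved the genes called from 8325 to 9045 in 501mel.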
